A study of Mus musculus with 48 samples.

Results

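The proteasome subunit genes of the mouse were taken as every gene whose symbol is Psma, Psmb, Psmc, Psmd or Psme followed by a number, with 1 entry per Ensembl gene. This gave 43 genes with 42 symbols among the 15541 genes listed over 6 tissues, between 41 and 42 in each tissue. They were followed through liver, fat, muscle and intestinal villi 9 days after gastric bypass, and the 3 immunoproteasome genes Psmb8, Psmb9 and Psmb10 were described apart from the others.

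The proteasome is the protease that takes apart proteins tagged with ubiquitin. Its barrel, the 20S particle, is a stack of alpha rings (Psma genes) around beta rings (Psmb genes), of which the subunits of Psmb5, Psmb6 and Psmb7 cut the chain. The 19S cap unfolds the substrate with a ring of ATPases (Psmc genes) and receives it and strips off the ubiquitin with non-ATPase subunits (Psmd genes), and barrel and cap together form the 26S proteasome. In lymphocytes, and in other cells exposed to interferon gamma, the subunits of Psmb8, Psmb9 and Psmb10 take the places of those of Psmb5, Psmb6 and Psmb7, and the barrel is then called the immunoproteasome. Psme1 and Psme2 encode PA28, a different cap that is also induced by interferon gamma, and these products supply peptides for MHC class I presentation.

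All mice were male C57Bl6 mice with diet-induced obesity from a high fat diet. They had either Roux en Y gastric bypass (RYGB), which leads food past most of the stomach and the duodenum, or sham surgery, and both groups then received a liquid elemental diet for 9 days, after which the labels mention a return to high fat diet. The mice were fasted and killed at 10 am, and the labels give no age. Each surgery was represented by 4 libraries in liver, in subcutaneous white adipose tissue (WAT) and in gastrocnemius muscle. Duodenal and jejunal villi gave 3 libraries after RYGB and 4 after sham, and ileal villi gave 5 after either surgery, 48 in total. Villi were scraped off after a short stay in cold EDTA, so these libraries hold epithelium together with whatever cells came off with it.

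Values are CPM, the share of a gene in all counted reads of its library scaled to a fixed total, so they are relative levels and the depth behind them is unknown. A gene was called where limma gave a Benjamini-Hochberg adjusted p under 0.05, over all genes tested in the tissue on log2(CPM + 1). Each label names 1 library, and nothing says which libraries of different tissues came from the same animal. In bulk RNA, fewer cells of a type and less RNA per cell cannot be told apart. Hepatocyte, adipocyte, muscle fibre and enterocyte markers were abundant where the labels place them, but the 2 ileal markers Fabp6 and Slc10a2 summed to only 1.7 to 101 CPM in the RYGB ileum and 0.2 to 25.4 CPM in the sham ileum. On the CPM scale no tissue was centred at 0: over all genes, the log2 fold changes had a median of 0.13 in liver, 0.105 in WAT and 0.124 in duodenum. It was 0.0524 in muscle, -0.0441 in jejunum and -0.0934 in ileum. Scaling each library by its median ratio to the others brought these medians to between -0.0105 and 0.0183, and each change below is read against them.

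Psmb8 and Psmb9 lie close together on chromosome 17 (GRCm38, GENCODE M21: Psmb8 at 34197721 to 34201454 on the plus strand, Psmb9 at 34181987 to 34187764 on the minus strand), inside the MHC region. Psmb10 lies apart, on chromosome 8 at 105935735 to 105938444. The bases before the RefSeq start (GRCm38.p6) are printed for both kinds of catalytic subunit, since both kinds compete for the same places in the barrel. Bases that GENCODE M21 places in an exon were left out, and for Psmb8, whose window lies inside an exon of another transcript, only 29 bases around a motif are shown. Capitals mark the ARE motif TGACNNNGC, the binding sequence of the NRF factors, in Psmb5 and Psmb6, and the GAS motif TTCNNNGAA, the interferon gamma activated sequence, in Psmb8. Sequences run 5′ to 3′ on the strand of the gene.
Psmb5 (chr14:54618023-54618245, minus strand): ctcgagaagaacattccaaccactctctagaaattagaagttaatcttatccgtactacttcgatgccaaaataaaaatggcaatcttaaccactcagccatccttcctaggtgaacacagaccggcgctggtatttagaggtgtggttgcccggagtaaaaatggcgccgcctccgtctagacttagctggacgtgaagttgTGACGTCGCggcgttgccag
Psmb6 (chr11:70525107-70525356, plus strand): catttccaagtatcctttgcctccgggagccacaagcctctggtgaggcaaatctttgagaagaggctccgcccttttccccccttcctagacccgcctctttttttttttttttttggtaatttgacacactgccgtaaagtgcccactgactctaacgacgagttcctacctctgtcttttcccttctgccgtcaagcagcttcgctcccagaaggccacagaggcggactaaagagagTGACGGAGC
Psmb10 (chr8:105938445-105938642, minus strand): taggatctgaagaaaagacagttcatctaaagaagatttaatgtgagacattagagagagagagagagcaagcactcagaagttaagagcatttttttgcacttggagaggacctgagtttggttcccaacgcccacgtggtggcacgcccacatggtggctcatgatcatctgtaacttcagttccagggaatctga
Psmb8 (chr17:34198088-34198116, plus strand): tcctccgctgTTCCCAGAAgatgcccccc

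Of the 36 proteasome genes with a RefSeq promoter, 5 held the ARE motif in the 250 bases upstream (13.9%, against 11.5% of all 27025 genes), namely Psmb5, Psmb6, Psmc6, Psmd9 and Psmd12. The first base of the motif lay 47 bases before the start of Psmb5 and 9 bases before that of Psmb6. The GAS motif was in 1 of the 36 (2.8%, against 8.1% of all genes), 97 bases before the start of Psmb8. Another motif, that of the interferon regulatory factors (GAAA, 2 bases of any kind, GAAA), was in Psmb3, Psmd4 and Psmd9 (8.3%, against 3.5% of all genes) and in none of Psmb8, Psmb9, Psmb10, Psme1 and Psme2. Both strands were searched, and a match of letters is a description of the window only.

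The 31 genes of the 26S core (7 alpha, 4 non-catalytic beta, 3 constitutive catalytic beta, 6 ATPase and 11 non-ATPase genes) summed to 2414 to 3047 CPM in liver, 2443 to 2813 CPM in WAT and 2547 to 3040 CPM in muscle, over both groups. The sums in villi were lower, 1476 to 2198 CPM in the duodenum, 1277 to 2024 CPM in the jejunum and 1085 to 1878 CPM in the ileum. Psmb8, Psmb9 and Psmb10 together made 12.2 to 20.1 CPM in muscle, 86.7 to 136.1 CPM in liver and 142.4 to 436.4 CPM in WAT, while the villi of the 3 segments lay between 132.7 and 505.8 CPM. The tables of the tissues were normalized separately, so these levels stand side by side without a test.

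Per kb of annotated exon, Psma6 had the highest level of all members in the sham liver (88.6 CPM per kb) and Psmb10 the highest in the sham ileum (68.3 CPM per kb). In sham muscle the lowest level per kb was that of Psmb9 (0.751 CPM per kb), below Psmb8 (1.52 CPM per kb) and far below the constitutive partner Psmb6 (52.5 CPM per kb). Psma8, an alpha subunit of the testis, was listed in liver only, at 0.782 CPM per kb in the sham group. Levels of 8 genes are uncertain, because another locus matches 52.7% to 98.2% of their longest coding transcript at 95% identity or more, so that reads can be split or dropped. They are Psma4, Psma5, Psmb3, Psmb5, Psmc1, Psmd2, Psmd11 and Psme2. The 3 intestinal tables carry a second entry under the symbol Psme2 (ENSMUSG00000078153), which is that near copy on chromosome 11, at 1.0 to 6.0 CPM.

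Fat was the only tissue in which immunoproteasome genes were called higher on the CPM scale. In the duodenum all 3 also had positive log2 fold changes, without a call, in a tissue where 7221 of the 10850 genes tested were above 0. Psmb8 had 123.2, 149.4, 155.8 and 229.9 CPM after RYGB in WAT and 82.0, 62.9, 65.4 and 72.2 CPM after sham. Psmb9 had 65.2, 78.3, 79.7 and 123.2 CPM after RYGB against 46.4, 38.0, 37.1 and 39.1 CPM after sham. For both genes the groups did not overlap (26.1% of all genes had every RYGB library above the sham group in WAT), and RYGB replicate 4 was the highest of all. The log2 fold change was 1.18 ± 0.18 (SE, n = 4 and 4, limma adjusted p = 0.00299) for Psmb8. It was 1.05 ± 0.18 (limma adjusted p = 0.00436) for Psmb9, against a median of 0.105 for all genes.

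Psmb10 moved less. It had 56.6, 71.0, 63.9 and 83.3 CPM after RYGB and 60.0, 41.5, 42.6 and 52.5 CPM after sham, and the lowest RYGB library lay below the highest sham library. Its log2 fold change was 0.48 ± 0.16 with a limma adjusted p of 0.0411. With libraries scaled by median ratio it was 0.36, with an adjusted p of 0.0559 by limma.

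The 2 genes of PA28 rose in WAT as well. Psme1 had 120.8, 133.7, 127.8 and 184.1 CPM after RYGB against 90.5, 88.7, 81.5 and 86.2 CPM after sham (log2 fold change 0.68 ± 0.14, limma adjusted p = 0.0073). Psme2, with 44.6 to 67.5 CPM against 30.7 to 39.9 CPM, had a log2 fold change of 0.59 ± 0.14 (limma adjusted p = 0.0141). Neither gene had overlapping groups.

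In all, 8 of the 41 proteasome genes of WAT were called, each of them higher after RYGB, in a tissue where 23.5% of all genes tested were called higher and 13.8% lower. The other 3 were Psma2 of the alpha ring, Psmb3 of the beta ring and the 19S assembly chaperone Psmd10. Their log2 fold changes were 0.29, 0.32 and 0.31, and none of these 3 was called after scaling by median ratio. That scaling left 5 calls, with Psmb8 (1.07), Psmb9 (0.94), Psme1 (0.57) and Psme2 (0.48) higher and the non-ATPase gene Psmd7 lower (-0.29, limma adjusted p = 0.0247), where 20.3% of all genes were called higher and 20% lower. Without RYGB replicate 2 the CPM scale gave 4 calls. The 31 core genes had a median log2 fold change of 0.0952 (range -0.175 to 0.321), close to the 0.105 of all genes. The 3 constitutive catalytic genes lay at or near 0: Psmb5 at 0.11 ± 0.14, Psmb6 at 0.00 ± 0.10 and Psmb7 at 0.00 ± 0.13, and none of the 3 was called.

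The lymphocyte markers of WAT moved with these genes. The 5 B cell markers summed to 687 to 1755.8 CPM in the RYGB libraries and to 5.4 to 13.6 CPM in the sham libraries, and the 6 T cell markers to 256 to 964 CPM against 8.0 to 14.4 CPM. Ptprc, carried by all leukocytes, was at 486 to 1520.8 CPM against 107 to 168 CPM, and the 5 macrophage markers at 1625 to 2059.9 CPM against 1461.1 to 2841.1 CPM. All 5 B cell and all 6 T cell markers were called higher (23.5% of all genes), and the 4 adipocyte markers summed to less after RYGB (5537.7 to 10812.5 CPM against 11746.2 to 18037.8 CPM). Of the 5 macrophage markers 2 were called lower (13.8% of all genes), and so were both keratinocyte markers listed, with sums of 0.1 to 0.3 CPM against 2.2 to 121 CPM. The part of these markers in the rise of Psmb8, Psmb9, Psme1 and Psme2 was not tested. Within the sequencing lanes that held both groups, the log2 fold change of Psmb8 was 1.08 (lane 5, 2 against 2 libraries) and 1.66 (lane 6, 1 against 1).

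**Figure D1:**
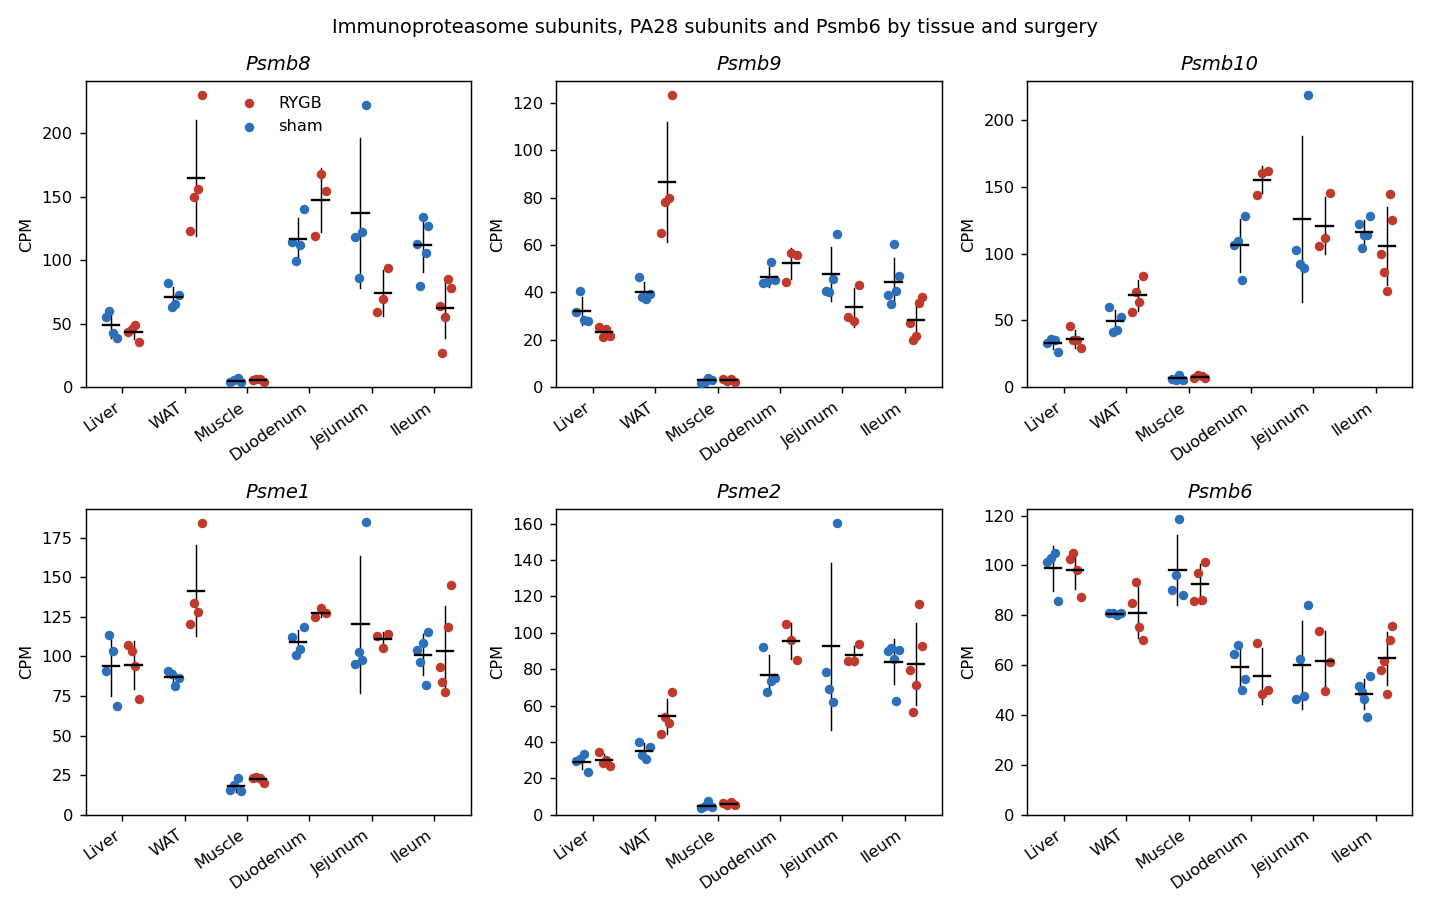
CPM of Psmb8, Psmb9, Psmb10, Psme1, Psme2 and, for comparison, the constitutive Psmb6, by tissue. Each point is 1 library (red RYGB, blue sham), the horizontal line is the group mean and the vertical line 1 SD. In WAT all 4 RYGB libraries of Psmb8 (123.2 to 229.9 CPM) lie above all 4 sham libraries (62.9 to 82.0 CPM), and in the jejunum sham replicate 4 stands above the other sham libraries in most panels.

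In liver Psmb9 lay lower after RYGB. It had 25.4, 21, 24.4 and 21.5 CPM after RYGB and 31.8, 40.5, 28.3 and 27.7 CPM after sham, with no overlap (RYGB below sham in 3.05% of all genes). The log2 fold change of -0.45 ± 0.14 missed the threshold on the CPM scale (limma adjusted p = 0.0638) and passed it when libraries were scaled by median ratio (-0.59 ± 0.13, limma adjusted p = 0.0273). Within lanes 2, 3 and 4 it was -0.65, -0.4 and -0.46. Psmb8 (-0.16 ± 0.16) and Psmb10 (0.14 ± 0.15, and -0.01 after median ratio scaling) overlapped between the groups and had adjusted p of 0.546 and 0.568 by limma.

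None of the 42 proteasome genes of liver was called by limma on the CPM scale (background 7.03% higher and 1.58% lower). After median ratio scaling Psmb9 alone was called, lower, where 4.75% of all genes were called higher and 3.17% lower. On the CPM scale 3 of the 42 had an unadjusted p under 0.05 (26.9% of all genes). Psmd8, a non-ATPase subunit, had one of the 2 smallest p values, with 114.4 to 157.6 CPM after RYGB and 99.2 to 123.5 CPM after sham (log2 fold change 0.30 ± 0.13, limma adjusted p = 0.16). The core genes had a median log2 fold change of 0.0722, below that of all genes (0.13), and 24 of the 31 were above 0, as were 71.0% of all genes. After median ratio scaling 6 of the 31 were above 0, against 47.9% of all genes. The 6 ATPase genes lay within a narrow range, 0.0571 to 0.132. Macrophage markers summed to 538 to 1475.9 CPM in the RYGB liver and 220 to 357 CPM in the sham liver, and Ptprc was at 34.3 to 97.0 CPM against 15.5 to 25.2 CPM, while Psmb8 had 35.8 to 49.2 CPM against 38.8 to 59.6 CPM. The 1 T cell marker listed in liver had 0.8 to 1.3 CPM after RYGB and 1.7 to 3.9 CPM after sham, without overlap (log2 fold change -0.785, not called). The 2 B cell markers listed went the other way, with sums of 2.4 to 8.0 CPM after RYGB and 1.9 to 2.7 CPM after sham. Their log2 fold changes were 0.4 and 0.489, and neither was called. The part of these markers in the values of Psmb9 was not tested.

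In muscle the immunoproteasome genes were near the lower limit of the table. Psmb8 had 4.3 to 6.7 CPM after RYGB and 4.0 to 6.9 CPM after sham, and Psmb9 had 2.2 to 3.4 CPM against 1.9 to 4.0 CPM. Sham replicate 3 was the highest sham library for both. No gene of the 11966 tested in muscle was called by limma (background 0.0%), while 1746 of all genes (14.6%) and 1 of the 41 proteasome genes had an unadjusted p under 0.05. That gene was Psme1, with 23.1, 24.1, 23.1 and 20 CPM after RYGB against 15.7, 18.7, 23.4 and 15.0 CPM after sham (log2 fold change 0.31 ± 0.14, limma adjusted p = 0.333).

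Psme3, which encodes a nuclear relative of PA28, had the next smallest p among the muscle genes, and its RYGB libraries (59.7 to 62.2 CPM) all lay above its sham libraries (53.3 to 58.5 CPM). The difference was small, 0.13 ± 0.07 on the log2 scale (limma adjusted p = 0.401), and 4.77% of all genes had every RYGB library above every sham library in muscle. The core genes had a median log2 fold change of -0.00531, against 0.0524 for all genes.

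The duodenum, which receives no food after RYGB, had lower values for the whole 26S core. All 31 core genes had a negative log2 fold change, between -0.586 and -0.028, with a median of -0.233. Of all genes tested in the duodenum, 33.4% were below 0, and their median was 0.124. None of the 42 proteasome genes was called by limma, 5 had an unadjusted p under 0.05 (18.8% of all genes), and 1 gene of the 10850 tested was called (0.00922%). After median ratio scaling the core median was -0.358, again with all 31 below 0 (49.4% of all genes), and still none was called.

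Psmd1, the scaffold subunit of the 19S base, had the smallest p of these genes. It had 58.4, 57.3 and 60.6 CPM after RYGB and 86.5, 71.4, 86.3 and 74.4 CPM after sham, without overlap, as 2.93% of all genes (log2 fold change -0.43 ± 0.12, limma adjusted p = 0.152). The alpha ring had a median of -0.302 and the non-ATPase genes one of -0.278. The 4 non-catalytic beta genes lay closer to 0, with a median of -0.0747. Single libraries differed in this shift. Set against the median of all genes, the core lay at -0.415 to -0.269 in the RYGB libraries and at -0.235 to 0.16 in the sham libraries, and sham replicate 4 was next to the RYGB group. Without sham replicate 4 limma called 2 proteasome genes, and without sham replicate 1 a total of 5 core genes were above 0.

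The immunoproteasome and PA28 genes of the duodenum had the other sign, as had 7221 of the 10850 genes tested there (median 0.124). Psmb10 had 143.8, 160.2 and 162.1 CPM after RYGB and 106.4, 109.2, 80.4 and 128.6 CPM after sham. All RYGB libraries lay above all sham libraries, as for 12.7% of all genes in this tissue, and the log2 fold change was 0.56 ± 0.17 (limma adjusted p = 0.162). Psmb8 was at 0.33 ± 0.17, Psmb9 at 0.16 ± 0.14, Psme1 at 0.23 ± 0.12 and Psme2 at 0.31 ± 0.15, and none of them was called. Beside this, 5 T cell markers summed to 35.7 to 79.7 CPM after RYGB and 13 to 40.2 CPM after sham, and no B cell marker was listed. Of these 5, 4 had a positive log2 fold change and 1 a negative one (-0.848), and none was called. Ptprc was at 18.1 to 46.5 CPM against 6.5 to 19.6 CPM, and 3 macrophage markers at 8.7 to 26.9 CPM against 2.1 to 12.2 CPM. The 4 enterocyte markers summed to 15936 to 17750.2 CPM against 16502.9 to 28543 CPM, with 3 negative and 1 positive. The part of these markers in the proteasome values was not tested.

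The jejunum gave no call among its 42 proteasome genes by limma (background 4.64% higher and 5.17% lower), and 1 had an unadjusted p under 0.05 (24.6% of all genes). That gene was Psmb8, with 59.0, 69.4 and 94.2 CPM after RYGB and 118.5, 85.6, 121.9 and 222.3 CPM after sham. The groups overlapped through RYGB replicate 3 and sham replicate 2. Its log2 fold change was -0.81 ± 0.30 (limma adjusted p = 0.122), within the lane that held both groups it was -0.78, and without sham replicate 4 it was -0.55. Psmb9, at 27.9 to 43.2 CPM against 40.2 to 64.7 CPM, had -0.50 ± 0.23 (limma adjusted p = 0.217), and Psmb10 had 0.04 ± 0.30.

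Sham replicate 4 of the jejunum stood high for most of these genes, with 2024 CPM for the core and 505.8 CPM for the 3 immunoproteasome genes. The other sham libraries had 1277 to 1742 CPM and 217.7 to 262.1 CPM. The core median was 0.0595, with 21 of 31 genes above 0 (45.5% of all genes), and the per-library core levels of the 2 groups overlapped. Leaving out 1 library gave 15 (without RYGB replicate 1) to 29 (without RYGB replicate 2) core genes above 0. The median of the genes other than Psmb8, Psmb9 and Psmb10, also 0.0595, ran from -0.02 (without sham replicate 3) to 0.203 (without sham replicate 4). T cell markers summed to 7.0 to 14.1 CPM after RYGB and 34.2 to 53.4 CPM after sham, and 4 of the 5 tested were called lower (5.17% of all genes). Their part in the values of Psmb8 and Psmb9 was not tested.

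In the ileum all 31 core genes had a positive log2 fold change, from 0.151 to 0.493 with a median of 0.36, while 38.4% of all genes tested in the ileum were above 0 and their median was -0.0934. Psmb8, Psmb9 and Psmb10 all had negative values, and the difference between these sets was not tested. Called by limma were 2 of the 42 proteasome genes, both higher (background 2.29% higher), and 23 had an unadjusted p under 0.05, against 26.5% of all genes. With libraries scaled by median ratio 26 of the 42 were called, all higher, where the background was 6.3% higher and 5.57% lower (5.68% lower before scaling), and the core median was 0.456.

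The 2 genes called were Psmd14, which encodes the enzyme that cuts ubiquitin off the substrate, and Psmb4 of the beta ring. Psmd14 had 39.8, 40.4, 35.1, 47.6 and 41.8 CPM after RYGB and 30.7, 30.9, 32.2, 28.0 and 29.7 CPM after sham (log2 fold change 0.42 ± 0.11, n = 5 and 5, limma adjusted p = 0.0355). Psmb4 had 75.1, 71.7, 66.1, 84.5 and 95.3 CPM against 58.3, 57.9, 58.8, 51.2 and 63.5 CPM (0.42 ± 0.12, limma adjusted p = 0.0449). In both genes all RYGB libraries lay above all sham libraries, which held for 5 of the 42 proteasome genes and for 2.42% of all genes. The call of neither is firm. Leaving out 1 library at a time gave between 0 calls (7 of the 10 fits) and 9 calls (without RYGB replicate 3) among the 42 genes.

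Of the catalytic subunits of the ileum, none was called. Psmb5 (log2 fold change 0.40 ± 0.17), Psmb6 (0.36 ± 0.14) and Psmb7 (0.49 ± 0.15) had limma adjusted p of 0.152, 0.12 and 0.0651. Psmb8 had 64.2, 26.7, 55.3, 85.5 and 78.2 CPM after RYGB and 112.8, 79.4, 133.7, 105.3 and 126.8 CPM after sham. RYGB replicate 2 was the lowest library, and the groups overlapped only through RYGB replicate 4 and sham replicate 2. The log2 fold change was -0.92 ± 0.27 (limma adjusted p = 0.0581). Psmb9 had 19.8 to 38.2 CPM against 35 to 60.6 CPM (-0.65 ± 0.20, limma adjusted p = 0.0695), and Psmb10 had 72.2 to 145.1 CPM against 104 to 127.9 CPM (-0.18 ± 0.17, limma adjusted p = 0.535).

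PA28 did not go with the immunoproteasome there: Psme1 was at 0.01 ± 0.17 and Psme2 at -0.04 ± 0.18, and the second turned positive (0.06) after median ratio scaling. Of the 3 assembly chaperones of the 19S base, none was called, and their values ran from -0.279 to 0.159. T cell markers summed to 4.3 to 14.5 CPM in the RYGB ileum and 20.2 to 51.1 CPM in the sham ileum, and 3 of the 4 tested were called lower (5.68% of all genes). The 4 enterocyte markers summed to 19658.3 to 29210.2 CPM after RYGB and 14174.9 to 21592.9 CPM after sham. Of these 4, 2 had a positive log2 fold change and 2 a negative one (range -0.174 to 1.25), and 1 was called higher (2.29% of all genes). Of the 2 ileal markers 1 was called higher (median log2 fold change 2.33). The part of these markers in the values of the core and of Psmb8 and Psmb9 was not tested. All RYGB libraries of the ileum were in lane 1 and all sham libraries in lanes 2 and 3, and the part of the lane cannot be told apart from that of the surgery.

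**Figure D2:**
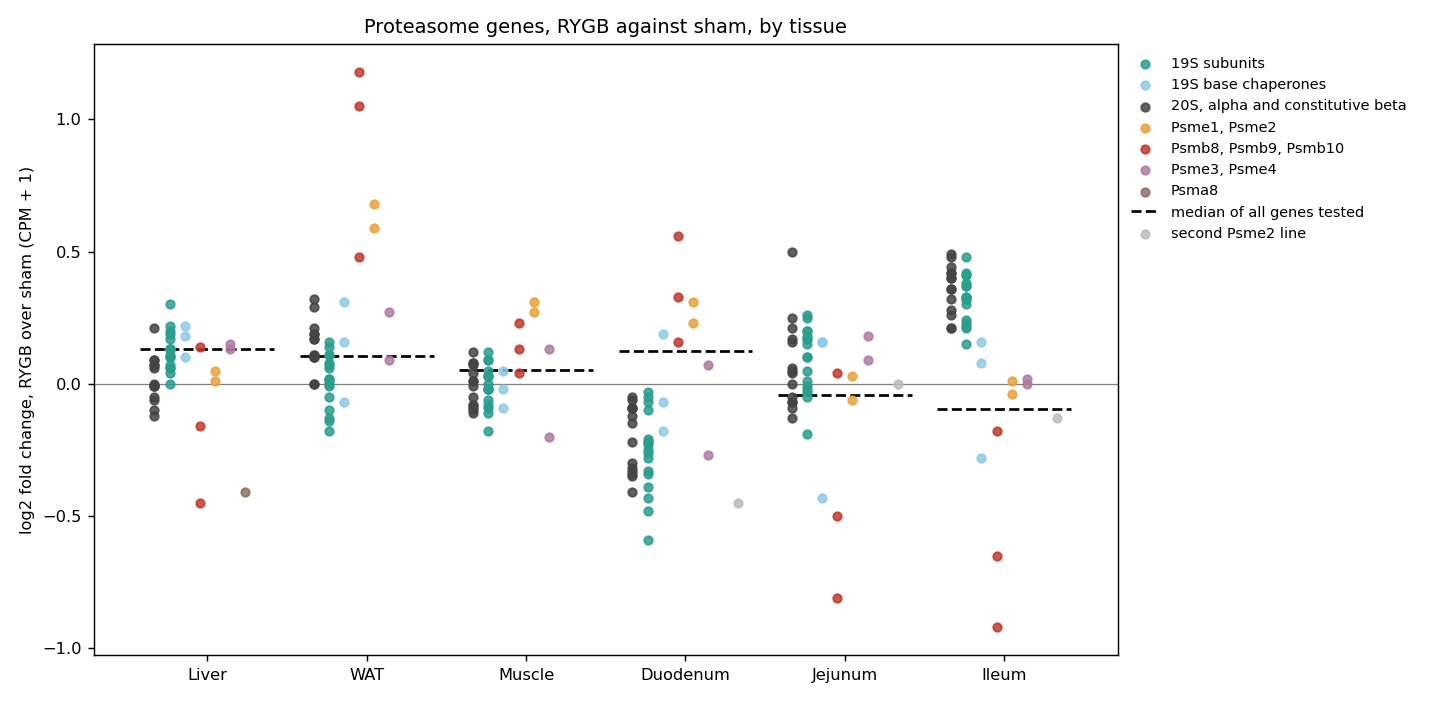
Log2 fold change (RYGB over sham, on CPM + 1) of every proteasome gene by tissue, 1 point per gene, coloured by part of the complex, with the median of all genes tested as a dashed line. The dark grey (20S) and green (19S) points of the core lie all below 0 in the duodenum (median -0.233) and all above 0 in the ileum (median 0.36), and the red points of Psmb8 and Psmb9 are the 2 highest in WAT and the 2 lowest in the ileum.

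The core was also followed in single libraries. Its summed CPM overlapped between the groups in the ileum (1320 to 1878.4 CPM after RYGB, 1085 to 1399.9 CPM after sham). The sums overlapped in the duodenum as well (1476 to 1735.1 CPM after RYGB, 1555.2 to 2198.1 CPM after sham). For each library, the median deviation of the 31 core genes from their sham mean was set against that of all genes of the library. In the ileum it was 0.414, 0.428, 0.362, 0.443 and 0.532 in the RYGB libraries and -0.119 to 0.0413 in the sham libraries. Liver, WAT, muscle and jejunum had overlapping groups. In WAT, RYGB replicate 4, the library with the highest Psmb8, had the lowest core value (-0.196).

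**Figure D3:**
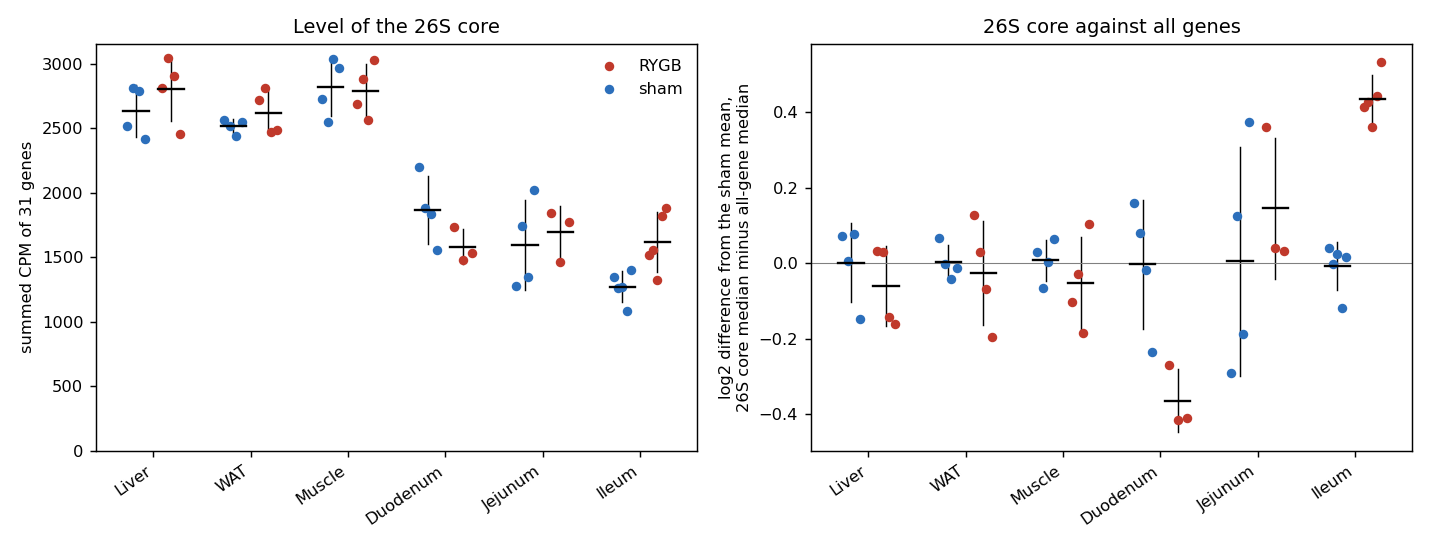
The 26S core by library, with red for RYGB and blue for sham, a horizontal line for the group mean and a vertical line for 1 SD. Left, the summed CPM of 31 genes, and right, the median log2 deviation of these genes from the sham mean minus that of all genes. On the right the RYGB libraries of the ileum (0.362 to 0.532) and of the duodenum (-0.415 to -0.269) do not overlap with their sham libraries, and those of the other 4 tissues do. On the left the groups overlap in every tissue.

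The RNA levels of immunoproteasome and constitutive catalytic genes can be compared within a library, where scaling between libraries has no effect. Both RNAs of a ratio may come from different cells, and the exchange of subunits in the particle was not measured. The part of the cell type markers in these ratios was not tested. For this the CPM per kb of exon of each immunoproteasome gene was divided by that of the constitutive gene whose place it takes, and the log2 of the ratio was compared without a test. In WAT, Psmb8 over Psmb5 was 0.95 to 2.47 after RYGB and 0.46 to 0.68 after sham. Psmb9 over Psmb6 was -1.35 to -0.16 against -2.08 to -1.77. Both ratios were 1.07 higher in the mean of the RYGB group, and the groups did not overlap. Psmb10 over Psmb7 was 0.49 higher, with overlap.

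The ileum was the reverse. Psmb8 over Psmb5 was -0.29 to 1.39 after RYGB and 1.97 to 2.70 after sham, a mean difference of -1.39. The ratio of Psmb9 to Psmb6 was lower by a difference of -1.03 and that of Psmb10 to Psmb7 by one of -0.69, and none of the 3 ratios overlapped between the groups. In liver Psmb9 over Psmb6 alone was separated, at -3.29 to -2.98 after RYGB against -2.86 to -2.32 after sham. In the duodenum all 3 ratios were higher after RYGB (0.79, 0.26 and 0.89), and in the jejunum all 3 were lower (-0.83, -0.57 and -0.13), each with overlap, the last turning to 0.07 without RYGB replicate 1. In muscle the differences were 0.25, 0.14 and 0.37, and the groups overlapped. The absolute value of the ratio to Psmb5 depends on how reads shared with its near copies were counted.

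**Figure D4:**
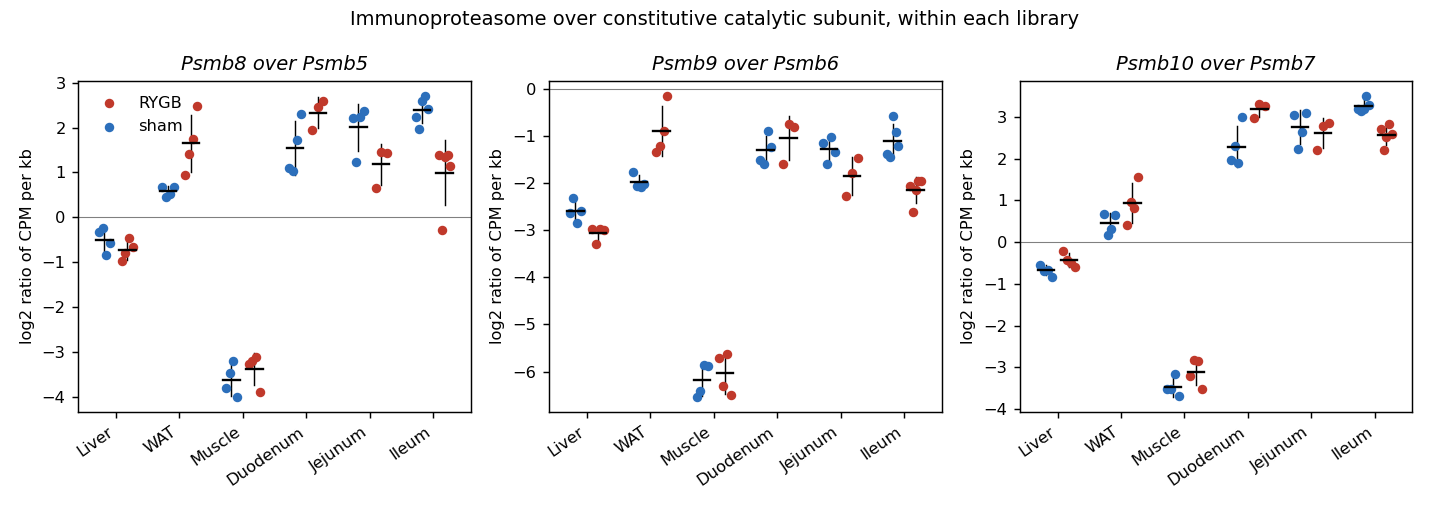
Log2 ratio of CPM per kb of exon, immunoproteasome gene over the constitutive catalytic gene it replaces, 1 point per library (red RYGB, blue sham), with the group mean as a horizontal and 1 SD as a vertical line. In the ileum all 3 ratios are lower in every RYGB library than in any sham library, in WAT the first 2 are higher, and muscle lies lowest in all 3 panels.

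Of 18 genes of proteasome assembly and regulation, 3 were called in WAT, where 23.5% of all genes were called higher and 13.8% lower. The assembly chaperones Psmg2 (log2 fold change 0.42 ± 0.11) and Psmg4 (0.53 ± 0.12) were higher, and Nfe2l1, the transcription factor that raises proteasome genes when the protease is inhibited, was lower. Nfe2l1 had 361.8 to 469.8 CPM after RYGB and 586.4 to 670.1 CPM after sham (-0.55 ± 0.13, limma adjusted p = 0.0127). On the CPM scale none of this list was called in the other tissues. After median ratio scaling 4 of the 16 tested in the ileum were called higher, against 6.3% of all genes. In the ileum Pomp, the maturation factor of the 20S particle, had a log2 fold change of 0.33 ± 0.13 (limma adjusted p = 0.135), and the list's median was 0.0225, well below the 0.36 of the core. In the duodenum it was 0.00962 beside the core's -0.233.

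Of 13 genes of ubiquitin supply and shuttling, 1 was called in WAT, against the same background of 23.5% higher and 13.8% lower. It was the ubiquitin gene Rps27a (8.1 to 11.8 CPM against 3.9 to 5.1 CPM, log2 fold change 0.92 ± 0.14, limma adjusted p = 0.00304). Ubqln4, which carries tagged proteins to the proteasome, was called in liver (0.35 ± 0.10, limma adjusted p = 0.0455), where 7.03% of all genes were called higher. It was not called after median ratio scaling (limma adjusted p = 0.199). In the other 4 tissues none was called on the CPM scale. After median ratio scaling 3 of the 12 tested in the ileum were called higher, against 6.3% of all genes. In WAT that scaling called 1 higher and 2 lower, where 20.3% of all genes were called higher and 20% lower.

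Of 12 genes of MHC class I presentation 4 were called in WAT, all higher, where 23.5% of all genes were called higher. Among them were the peptide transporter genes Tap1 (log2 fold change 1.39 ± 0.23) and Tap2 (0.60 ± 0.15) and the MHC class I transactivator Nlrc5 (1.03 ± 0.21). Tap1, the neighbour of Psmb9 on chromosome 17, had 135.9 to 314.6 CPM after RYGB and 66.0 to 87.2 CPM after sham. The limma adjusted p was 0.00369 for Tap1, 0.0184 for Tap2 and 0.00776 for Nlrc5. In the ileum, the chaperone Calr rose (0.91 ± 0.19, limma adjusted p = 0.0153) and Tapbp, which holds MHC class I at the transporter, fell (-0.52 ± 0.14, limma adjusted p = 0.0383, and 0.126 after median ratio scaling). Calr was also called higher in the jejunum (0.81 ± 0.22, limma adjusted p = 0.0486). Tap1 had -0.83 ± 0.25 in the ileum and -0.68 ± 0.29 in the jejunum, and neither was called. In liver, muscle and duodenum no gene of this list was called by limma. Of all genes, 2.29% were called higher and 5.68% lower in the ileum, and 4.64% and 5.17% in the jejunum.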

How the data were processed

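The authors deposited 1 table of CPM values per tissue, rounded to 0.1, with 1 column per library. The unit was read from the values, whose columns sum to between 925122 and 998777 with 1 line kept per gene. The submitters' processing notes name HTSeq and GRCm38, and the aligner is not given in the sources used here. Because CPM are no counts, no count model was used, and the low values did not give whole reads, so depth and counting error are unknown. Lines that repeat a gene (1 to 408 per table) were used once, and 12 broken lines of the liver table were left out.

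For each tissue, RYGB and sham libraries were compared with limma 3.58.1 (R 4.3.3, empirical Bayes with a trend) on log2(CPM + 1), keeping genes that averaged 1 CPM or more, with Benjamini-Hochberg adjustment over all genes tested. All proteasome genes passed this minimum. The method was tested on simulated data. Near copies were found with blastn 2.17.0 (at least 95% identity over 100 bases, loci overlapping the gene left out). Lengths are the union of GENCODE M21 exons, which includes rarely used exons. Table handling used Python 3.11.15 with numpy 2.4.6 and pandas 2.3.3.

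Named in every tissue were Psmb5 to Psmb10, Psme1 and Psme2, and, per tissue, the 5 called proteasome genes with the largest change in each direction or, with none called, the 2 with the smallest p. Any other proteasome gene given with values was picked with its values known. The members and the lists were chosen with earlier results of these data known. Lanes are those in the labels and may belong to different runs. Alternatives were the pseudocount, the CPM minimum, median ratio scaling, a fold minimum of 1.5, no trend, lane, replicate block and leaving out each library. The p values measure the spread between libraries, since nothing in the labels says more about the animals. Libraries with the same replicate number had correlations of deviations of both signs (between -0.281 and 0.389 over 23 pairs). With so few libraries per group this cannot show whether the numbers pair the libraries, and the main fits left them unpaired. The values of 1 gene of the MHC class I list are not reported here.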

Additional observations from a re-analysis of the deposited data

Results flagged for a closer look

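In 6 of the 89 groups of 4 or 5 libraries examined for the named genes, 1 library lay far from the others. Its gap over the whole range of the group, taken on log2(CPM + 1), was above Dixon's limit. Chance flags about 1 in 20 groups, which would be 4.5. In sham WAT, Psmb5 was at 13.7 CPM in replicate 1 and 12 to 12.2 CPM in the others (share of the range 0.876), and Psmb6 at 80.1 CPM in replicate 3 and 80.8 to 80.9 CPM in the others (0.876). Psmb9 in the sham duodenum was at 52.7 CPM in replicate 3 and 44.1 to 45.0 CPM otherwise (0.887). Sham replicate 4 of the jejunum was apart for Psmb10 (218.8 CPM against 89.2 to 103.1 CPM, 0.839) and for Psme1 (184.8 CPM against 95.2 to 103.1 CPM, 0.88). Psme2 in the sham ileum was at 62.3 CPM in replicate 4 and 85.4 to 91.8 CPM otherwise (0.813).

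For 3 genes the groups did not overlap in either of 2 tissues, and the RYGB group was the higher in one and the lower in the other. Psmb9 had a log2 fold change of 1.05 in WAT and -0.45 in liver, 1.5 apart. Psmd1 had 0.41 in the ileum and -0.43 in the duodenum, 0.84 apart. Psmd11, a non-ATPase subunit with near copies, had 0.32 in the ileum and -0.34 in the duodenum, 0.66 apart. These differences between tissues were not tested, because the tables were normalized separately. Every RYGB library lay above the sham group in 26.1% of all genes in WAT and in 2.42% in the ileum. Every RYGB library lay below it in 3.05% of all genes in liver and in 2.93% in the duodenum. The share of all genes with opposite separation in 2 tissues was not counted.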

How the results depend on the processing

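One median was taken over the proteasome genes other than Psmb8, Psmb9 and Psmb10, with Psme1 and Psme2 included. Median ratio scaling moved it from 0.0855 to -0.0655 in liver and from 0.0969 to -0.0109 in WAT. It moved the number of proteasome genes called from 0 to 1 in liver, from 8 to 5 in WAT and from 2 to 26 in the ileum. With lane as a covariate 1 was called in liver and 5 in WAT. This fit was not run for the duodenum, all of whose libraries were in lane 2, nor for the ileum. A fold minimum of 1.5 left 4 in WAT and 0 in the ileum, where a fit without a trend called 1. The replicate block called 5 in WAT, 1 in the ileum (Psmb8, lower) and 0 in the other 4 tissues, although it is not known whether the numbers pair the libraries. Under the block Psme1 in the jejunum was at 0.16. The cause of these shifts was not tested. Scaling turned the sign of Psmb10 (-0.01), Psmb5 (-0.07), Psme1 (-0.14) and Psme2 (-0.09) in liver, Psmb9 in muscle (-0.01), Psme1 in the jejunum (0.01) and Psme2 in the ileum (0.06), and lane that of Psmb6 in liver (0.0) and Psmb5 in WAT (-0.0). Leaving out 1 library gave 4 to 8 calls in WAT, 0 to 2 in the duodenum and 0 to 9 in the ileum.

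The sign also turned on leaving out 1 library, with log2 fold changes in liver from -0.01 to 0.18 for Psmb5, -0.07 to 0.05 for Psmb6, -0.13 to 0.13 for Psme1 and -0.05 to 0.12 for Psme2. In WAT they ran from -0.07 to 0.06 for Psmb6 and -0.09 to 0.11 for Psmb7, and in muscle from -0.07 to 0.19 for Psmb9 and -0.13 to 0.01 for Psmb6. In the jejunum they ran from -0.1 to 0.34 for Psmb10, -0.1 to 0.16 for Psmb5, -0.08 to 0.23 for Psmb6, -0.15 to 0.16 for Psme1 and -0.13 to 0.32 for Psme2, and in the ileum from -0.13 to 0.1 for Psme1 and -0.17 to 0.08 for Psme2. The counts of core genes above 0 and the subunit ratios were chosen after seeing the data.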
